A study of Mus musculus with 24 samples.

Results

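Old kTreg cells were compared with young kTreg cells, gene by gene, in 8 bulk RNA-seq libraries of the 24 in the series. kTreg cells are regulatory T cells of the spleen that carry the surface receptor KLRG1, sorted by flow cytometry from wild-type C57BL/6JRccHsd mice. The young mice were 2 months old and the old mice 26 months old, with 4 kTreg libraries per age, and the labels give no treatment. The study also sorted resting Treg (rTreg) and activated Treg (aTreg) cells, 4 libraries per age and subset. The labels number the libraries within each age and subset but do not say whether each came from 1 mouse. The study's text gives n = 4 per group and, unless otherwise specified, counts n as individual biological replicates. The p-values measure only the spread between these libraries. A gene entered the comparison when its normalized value reached 10 in at least 4 of the 8 kTreg libraries, and 14623 of the 17464 listed genes did. In bulk libraries, fewer cells of a type and less RNA per cell cannot be told apart.

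Regulatory T cells restrain immune responses through the transcription factor FOXP3 and through surface proteins such as CTLA-4, which competes for costimulatory ligands. KLRG1 marks T cells with a long history of stimulation, and KLRG1+ Treg cells share many genes with the Treg cells of nonlymphoid tissues, among them Gata3 and Il1rl1, which encodes the IL-33 receptor ST2. Like other effector Treg cells they divide in the steady state, so their transcriptome holds both differentiation genes and cell cycle genes.

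The 8 libraries held 15045747 to 21653939 assigned reads, and 1 read was worth 0.901 to 1.31 normalized units. Young replicate 4 stood apart, with 4913 genes listed at 0 against 575 to 1192 in the other 7 libraries. Of the genes compared, 1467 were at 0 in young replicate 4 alone while at 10 or more in every other kTreg library, and no more than 5 genes had that pattern in any other library. Young replicate 2 held a summed value of 80554 for 18 macrophage and monocyte markers, against 1921 to 7661 elsewhere, and 9789 for 11 B cell markers, against at most 2262. The summed value of 9 T cell and Treg identity genes, Foxp3, Il2ra and Klrg1 included, ran from 164430 to 196590 over all 8 libraries. Such a sum does not show by itself that a library held KLRG1+ Treg cells alone. With young replicate 2 set aside, the old libraries still lay above the young ones for the macrophage markers (at most 3905 in young against 4967 to 7661 in old), 12 neutrophil markers (at most 1482 against 1709 to 3166) and 8 dendritic cell markers (at most 595.1 against 864.5 to 1280). The part of these cells in the results below was not tested. Counts are given with all 8 libraries, without young replicate 4, and without young replicate 2 where a count that was not 0 became 0 or a count of 0 did not stay 0.

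**Figure D1:**
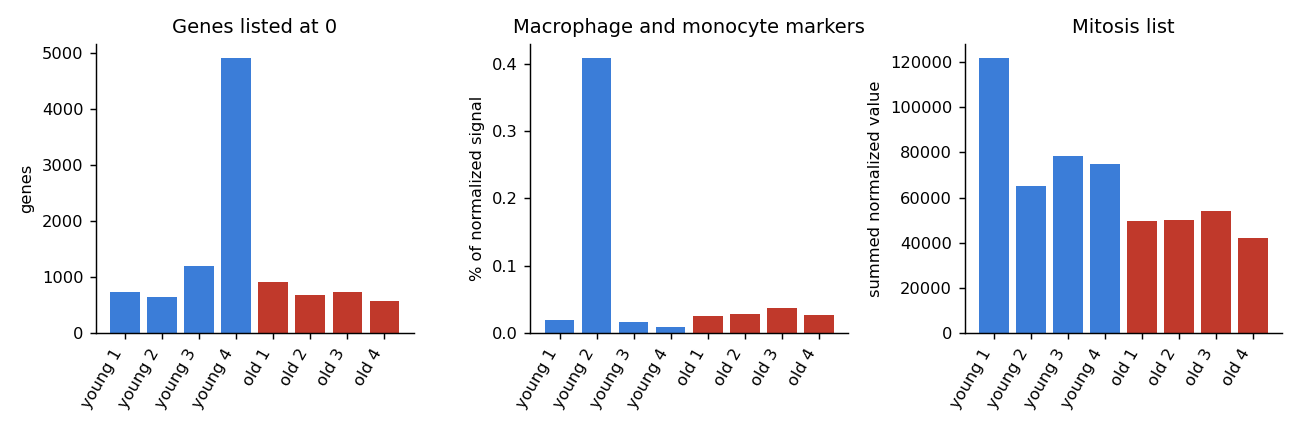
Bar charts with 1 bar per kTreg library (young replicates in blue, old replicates in red) show the number of genes listed at 0, the percent of normalized signal on macrophage and monocyte markers, and the summed normalized value of the mitosis list. Young replicate 4 reaches 4913 genes at 0, young replicate 2 reaches 0.409% on macrophage markers, and the 4 old libraries have the lowest mitosis sums.

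With all 8 libraries, 44 genes were higher and 18 lower in old kTreg cells, at an adjusted p below 0.05 and a fold above 1.5 in limma. These were 0.301% and 0.123% of the genes compared, and the 4 young and 4 old values did not overlap for any of the 62. Over all genes, the 2 ages did not overlap for 994 with every old value higher (6.8%) and for 638 with every old value lower (4.36%), and the unadjusted p was below 0.05 for 6.68% upward and 5.46% downward. Without young replicate 4 the counts were 395 higher (2.7%) and 231 lower (1.58%), which held all 62 genes in the same direction, while 26 of the other 564 had the opposite sign with all 8 libraries. Without young replicate 2 they were 50 higher (0.342%) and 20 lower (0.137%), and 39 of the 62 were among them. Leaving out any one of the other 6 libraries left 0 to 3 genes in limma, with 1201 to 1686 genes at an unadjusted p below 0.05. Over all genes compared, the median log2 fold change was 0.10 with 8 libraries and 0.01 without young replicate 4. Of the 44 higher genes, 18 reached 10 in no young library, so that they passed the filter through the old libraries and had to differ.

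The genes that rose with the smallest p included 2 apolipoprotein L genes, a protease inhibitor and an interferon-induced GTPase. Apol7e, an apolipoprotein L family member (GRCm39 chromosome 15, 77583057 to 77603485, plus strand), had normalized values of 802, 907, 773 and 894 in the young libraries and 3468, 2577, 2410 and 3316 in the old. The lowest old value lay far above the highest young one, and the log2 fold change was 1.79 ± 0.14 (SE, n = 4 per age, adjusted p = 0.00812). Apol10b, of the same family on the same chromosome, read 145, 140, 241 and 141 in young and 667, 556, 644 and 620 in old cells, a 3.81-fold rise with young replicate 3 the highest of the young. Reads shared among such close relatives can be split by the counting, which also holds for the genes Serpina3g and Tgtp1. Serpina3g, an intracellular inhibitor of cathepsins, read 2842, 2938, 2895 and 2426 against 9269, 5965, 6014 and 7039, and rose by 1.33 ± 0.15 (adjusted p = 0.0309). Tgtp1, an interferon-induced GTPase, read 1151, 874, 998 and 1263 against 3809, 2472, 2582 and 3446. Every old library was above every young one for both genes. Casp1, the inflammasome caspase, rose 1.91-fold, with 2596, 2756, 2332 and 1732 in young and 4541, 3975, 4424 and 4820 in old libraries.

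Other genes that rose encode surface receptors and transporters. Gpr15, a receptor that guides T cells to the large intestine and skin, read 1155, 986, 1604 and 1498 in young and 3017, 2546, 3610 and 3254 in old libraries, a log2 fold change of 1.26 ± 0.18 (adjusted p = 0.0343). Ifngr1, the ligand-binding chain of the interferon-gamma receptor, read 13546, 12216, 15509 and 10479 against 20618, 21112, 22615 and 24131, and rose 1.72-fold (adjusted p = 0.0418). Both genes separated the ages without overlap. Ptger2, a prostaglandin E2 receptor, read 1625, 1672, 1479 and 1418 against 2680, 2510, 2247 and 2557, a 1.61-fold difference. Abcb1a, a drug efflux pump, rose 1.77-fold and had no overlap between the ages. Lilrb4a and Lilrb4b, inhibitory receptors encoded by near-identical genes, both rose, and Lilrb4a read 1499, 1860, 908 and 1219 in young against 3788, 10042, 6610 and 4899 in old cells. Tmem176b, a membrane protein, rose 7.35-fold, from 198 to 610 in the young libraries to 1542 to 4787 in the old. Podnl1, Card6, Baiap3, Entrep3, Dennd2d, Ttn and Enpp4 also rose with no overlap between the ages, with log2 fold changes from 0.67 (Entrep3) to 1.84 (Enpp4).

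Some genes were at or near 0 in young kTreg cells. Wwtr1, which encodes the Hippo pathway coactivator TAZ, was at 0 in all 4 young libraries and at 67.1, 69.4, 77.1 and 68.3 in the old, at least 22.2-fold higher when the young libraries are set to a floor of 3 reads each. Mark1, a microtubule affinity kinase, was at 0 in young cells and at 18.9, 144, 166 and 38.1 in old cells, at least 28.9-fold higher. Nectin3, a ligand of the nectin and nectin-like adhesion system, was at 0 in young and at 51.3, 23.4, 10.5 and 32.8 in old cells, at least 9.31-fold higher. The old values of Mark1 and Nectin3 were spread several-fold among libraries, and those of Wwtr1 were nearly equal. St6galnac1, a sialyltransferase, read 3.92, 0, 0 and 0 in young libraries, 3 reads in all, and 425, 144, 58.1 and 109 in old ones. The immunoglobulin segment Igkv5-39 was also among the 44, with at most 0.956 in the young libraries and 2028, 168, 100 and 461 in the old. Plasma cell markers overlapped between the ages, at 114 to 1159 in young and 363 to 2250 in old libraries over 6 listed genes, and their part in the value of the segment was not tested.

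The genes that fell included 3 of the 22 checkpoint and costimulatory receptors compared, where 0.123% of all genes fell. The list was not lower as a whole, with 12 members above 0, 10 below and a median log2 fold change of 0.05. Without young replicate 4, 3 members were called higher and 3 lower, against 2.7% and 1.58% of all genes. Ctla4 (GRCm39 chromosome 1, 60926159 to 60954991, plus strand) read 23423, 20444, 23445 and 20206 in young and 13016, 13965, 15427 and 14267 in old libraries. The ages did not overlap, and the log2 fold change was -0.63 ± 0.09 (SE, adjusted p = 0.0343). Icos, the inducible costimulator that lies next to it on the chromosome, read 22621, 18545, 22747 and 20436 against 12838, 11642, 10933 and 14165, and fell by 0.77 ± 0.11 on the log2 scale (adjusted p = 0.0343). Havcr2, which encodes TIM-3, read 1348, 1072, 1243 and 778 in young cells and 328, 354, 353 and 391 in old ones. It was 3.05-fold lower, with a spread among old libraries of 26.04 (SD) around a mean of 356.6. Ctla4 and Icos are also members of the Treg identity list, where no gene rose.

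Other genes that fell encoded effector, signaling and metabolic proteins. Gzmb, the granule protease granzyme B, read 7816, 4275, 5519 and 6255 in young and 1978, 1948, 1546 and 1055 in old libraries, 3.68-fold lower (log2 fold change -1.88 ± 0.24, adjusted p = 0.0309). Il6ra, the binding chain of the IL-6 receptor, read 842, 1025, 761 and 638 against 304, 401, 366 and 324, 2.32-fold lower. Neither gene had an old value within the young range. Sgk1, a salt- and glucocorticoid-induced kinase, read 1815, 1744, 2002 and 1496 against 820, 939, 730 and 886, with a log2 fold change of -1.06 ± 0.13. Sesn1, a sestrin that restrains mTORC1, read 5870, 7305, 6879 and 6629 against 2813, 3641, 3969 and 3417, 1.94-fold lower. Both genes separated the ages in every library. Lgmn, a lysosomal endopeptidase that macrophages also express, read 2032, 2722, 1421 and 2119 against 462, 501, 810 and 416, and its log2 fold change was -1.93 with all libraries and -1.79 without young replicate 2, the library with the high macrophage markers. Myadm, Ildr1, Fam234a, Arl5c, Gcnt1 and Rln3 fell 1.97- to 2.68-fold with no overlap between the ages.

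**Figure D2:**
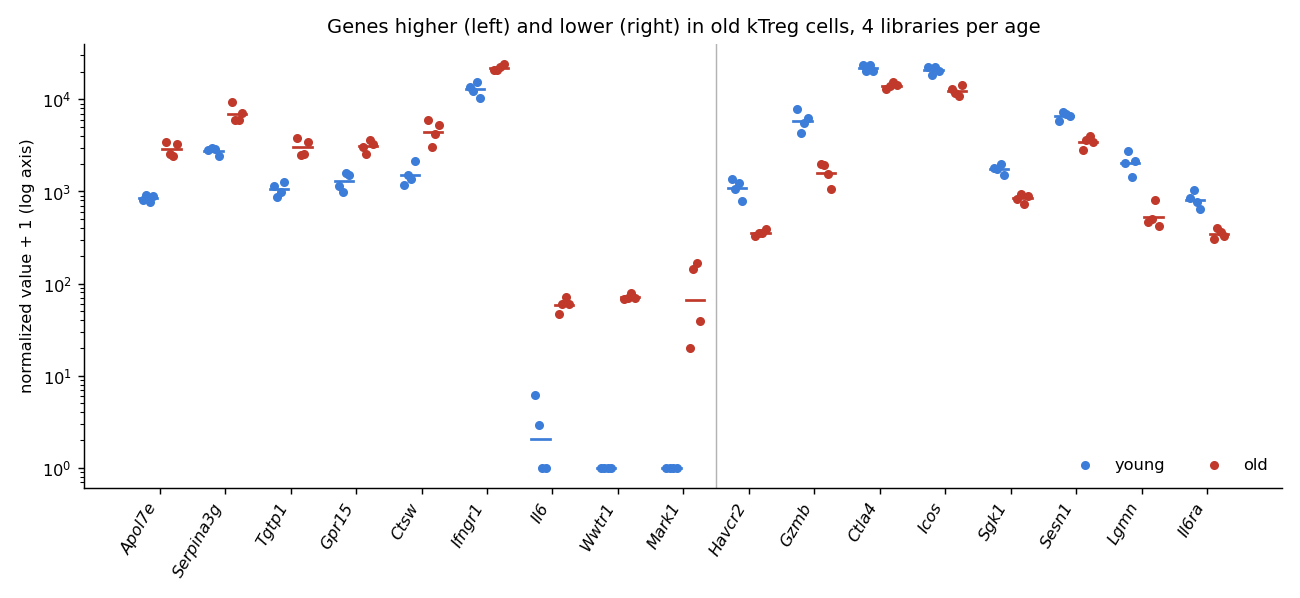
Points show the normalized value plus 1 on a log axis in each of the 4 young (blue) and 4 old (red) kTreg libraries for 9 genes higher and 8 genes lower with age, and the short lines are geometric means. The ages do not overlap for any of the 17 genes, and Wwtr1 and Mark1 sit at 0 (plotted at 1) in every young library.

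Most genes of mitosis had lower values in old kTreg cells. Of 73 members compared, 65 had a log2 fold change below 0, the median was -0.85 against 0.10 for all genes (-0.56 without young replicate 1, the library with the highest sum), and 28 members had every old library below every young one while none had the opposite. Every old library was lower for 4.36% of all genes and higher for 6.8%. At an unadjusted p below 0.05, 47 members were lower and 0 higher, against 5.46% and 6.68% of all genes. No member passed the adjusted threshold in limma with 8 libraries, 2 did without young replicate 2, 35 did without young replicate 4 (median -0.99 against 0.01 for all genes), and 27 did in DESeq2 with 8 libraries, where 1.25% of all genes were lower and 1.49% higher. In limma without young replicate 4, 1.58% of all genes were lower and 2.7% higher. Summed over the list, the normalized value was 121923, 65117, 78470 and 74852 in the young and 49573, 50034, 54307 and 42282 in the old libraries. All 4 old sums lay below all young ones, with means of 85090 ± 25190 and 49050 ± 4990 (SD), and the two-sided exact permutation p was 0.0286, the smallest that 4 against 4 libraries allow (0.229 after Benjamini-Hochberg adjustment over 8 library values).

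Kif23, a kinesin of the central spindle, read 1437, 807, 882 and 1838 in young and 402, 425, 347 and 378 in old libraries. No old value came near the young range, and the log2 fold change was -1.59 ± 0.27 with 8 libraries (adjusted p = 0.0517) and -1.38 ± 0.19 without young replicate 4 (adjusted p = 0.00453), with adjusted p from 2.42e-06 to 0.221 over 20 alternatives. Esco2, which acetylates cohesin, read 545, 269, 374 and 307 against 79.6, 123, 79 and 140, and Nusap1, a spindle microtubule bundler, read 2352, 1190, 1140 and 1624 against 594, 660, 689 and 437. Bub1b, which encodes the spindle checkpoint kinase BUBR1, read 1652, 888, 1258 and 2739 against 687, 591, 528 and 450. For these members the ages did not overlap. Top2a, the decatenating topoisomerase of mitosis, read 4705, 2381, 2710 and 1302 against 1435, 1717, 1196 and 1091, with young replicate 4 inside the old range. Kif4, a chromokinesin, and Hmmr, a spindle-associated protein, were at 0 in young replicate 4 and at 481 to 694 and 522 to 1308 in the other young libraries, against 164 to 267 and 278 to 354 in the old, and both had a positive log2 fold change with 8 libraries and fell without that library. Esco2, Nusap1, Bub1b, Top2a, Kif4 and Hmmr were picked out after their values were seen.

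The promoters of 3 of these genes are shown because the mitosis list held more genes that fell without young replicate 4 than any other list, and a short element was found in most of their windows. Sequences are from RefSeq on build GRCm38.p6, in windows of 300 bases that span the gene start, 5′ to 3′ on the strand of the gene, and capitals mark TTTGAA or TTCGAA on either strand, the core letters of the cell cycle genes homology region (CHR), bound by the DREAM and MYB-MuvB complexes. The windows are chr9:61946750-61947049 on the minus strand (Kif23), chr2:118597961-118598260 on the plus strand (Bub1b) and chr11:99024140-99024439 on the minus strand (Top2a).
Kif23: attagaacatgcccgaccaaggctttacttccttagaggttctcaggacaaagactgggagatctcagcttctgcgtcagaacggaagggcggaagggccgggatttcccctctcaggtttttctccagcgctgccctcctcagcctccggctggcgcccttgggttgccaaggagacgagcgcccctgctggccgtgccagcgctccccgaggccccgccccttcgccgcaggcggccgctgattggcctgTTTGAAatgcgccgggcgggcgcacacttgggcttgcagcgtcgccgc
Bub1b: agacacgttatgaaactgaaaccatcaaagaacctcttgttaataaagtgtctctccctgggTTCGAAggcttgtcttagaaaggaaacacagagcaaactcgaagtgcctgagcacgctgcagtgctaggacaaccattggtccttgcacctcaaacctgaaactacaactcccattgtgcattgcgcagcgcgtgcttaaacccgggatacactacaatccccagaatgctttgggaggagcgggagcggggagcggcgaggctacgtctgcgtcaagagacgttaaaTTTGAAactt
Top2a: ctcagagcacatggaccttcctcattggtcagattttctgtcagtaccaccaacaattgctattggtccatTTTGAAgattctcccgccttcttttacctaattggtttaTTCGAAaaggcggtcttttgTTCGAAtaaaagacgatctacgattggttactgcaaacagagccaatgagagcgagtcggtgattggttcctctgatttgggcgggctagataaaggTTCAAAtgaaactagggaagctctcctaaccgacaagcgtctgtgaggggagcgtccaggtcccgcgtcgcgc
Of the 35 mitosis members that fell without young replicate 4, 30 had a window in the table, and 23 of them (76.7%) held the CHR letters, against 21.7% of 27025 genes with a window. The CCAAT box, CCAAT on either strand, was in 20 of the 30 (66.7%) against 41.1%, the E2F-type letters GCGGGAA were in 3 (10%) against 5.29%, and the AP-1 letters TGANTCA were in 1 (3.33%) against 8.97%. CHR and CCAAT do not share letters and were counted separately. A match describes letters in a window and not a bound site. The mitosis members that did not fall were not counted. These shares therefore describe genes of the mitosis list and do not set those that fell apart from the rest of the list.

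DNA replication genes had a median nearer to 0 than mitosis genes. Of 60 members, 43 had a log2 fold change below 0, with a median of -0.28, and every old library was lower for 10 and higher for 2. The shares of all genes were 4.36% and 6.8%. None passed the adjusted threshold in limma with 8 libraries, where 18 were lower and 2 higher at an unadjusted p below 0.05, and 3 were lower in DESeq2. For all genes, 5.46% were lower and 6.68% higher at that unadjusted p, and 1.25% were lower in DESeq2. Without young replicate 4, 7 members fell, where 1.58% of all genes did. Among them were Rrm2, the regulated subunit of ribonucleotide reductase, and Ccne1, which encodes cyclin E1. Rrm2 read 6252, 2931, 4095 and 3664 in young and 2159, 1732, 2143 and 1730 in old libraries, with no overlap. Of the Polycomb and DNA methylation list, Ezh2 fell without young replicate 4, from 1111 to 1538 in the 4 young libraries to 734 to 1006 in the old. Cdkn1a, which encodes the cyclin-dependent kinase inhibitor p21, read 115, 127, 132 and 238 in young and 266, 497, 267 and 173 in old libraries, which overlap (log2 fold change 0.93 ± 0.39, adjusted p = 0.389).

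More cholesterol and fatty acid synthesis genes had lower than higher values in old kTreg cells. Of the 34 sterol and fatty acid synthesis members compared, 21 had a log2 fold change below 0, 10 were lower and none higher at an unadjusted p below 0.05, 5 were lower in every old library, and the median was -0.22. Of all genes, 5.46% were lower at an unadjusted p below 0.05 and 4.36% were lower in every old library. In limma 1 member passed with all 8 libraries, DESeq2 called 5 members lower, and 6 fell without young replicate 4. The shares of all genes called lower were 0.123%, 1.25% and 1.58%. Cyp51, the sterol demethylase, read 1867, 1779, 1469 and 2776 against 730, 892, 973 and 684 (adjusted p = 0.0517 with 8 libraries and 0.00438 without young replicate 4, and from 9.19e-06 to 0.281 over 20 alternatives). Sqle, squalene epoxidase, read 757, 874, 581 and 971 against 384, 362, 338 and 372. In both genes young replicate 4 held the highest value of the 8 libraries. Insig1, the sterol sensor, was at 0 in young replicate 4 and at 535 to 771 in the other young libraries, against 328 to 476 in the old. Cyp51, Sqle and Insig1 were picked out after their values were seen.

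**Figure D3:**
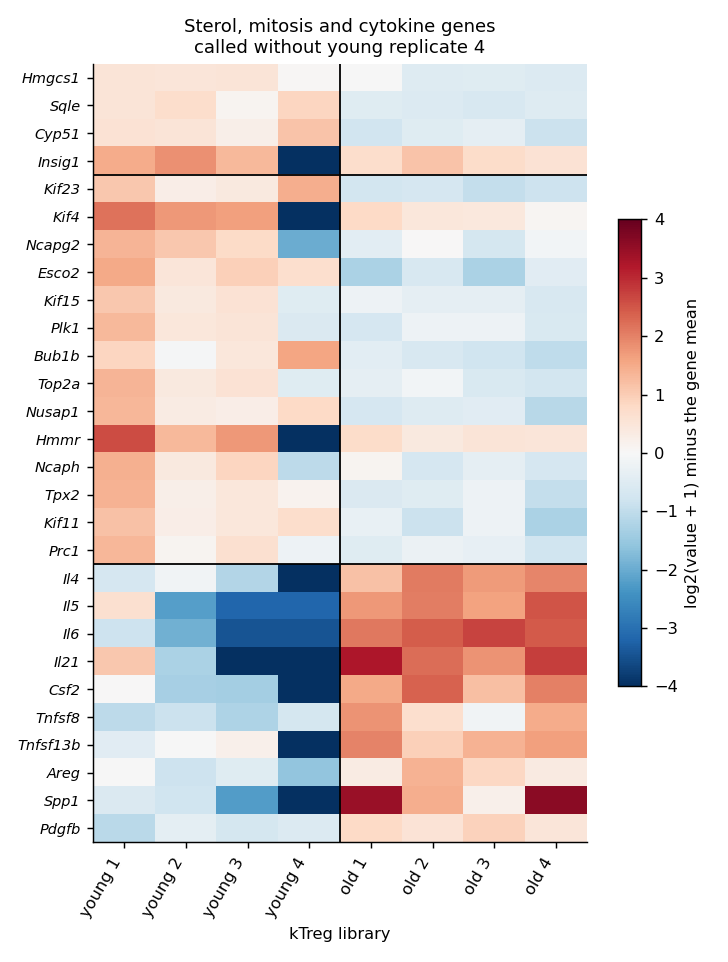
Colors show log2(value + 1) minus the mean of the gene over the 8 kTreg libraries, with the scale limited at -4 and 4, for 4 of 6 sterol, 14 of 35 mitosis and 10 cytokine genes that passed the test without young replicate 4. Old libraries are lower in the upper blocks and higher in the lowest block, and young replicate 4 has isolated dark cells where a gene is at 0.

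Most cytokine genes had higher values in old kTreg cells. Of 30 members compared, 12 had every old library above every young one and 1, Il18, the opposite, where 6.8% and 4.36% of all genes did. The 12 include Il6, which had to differ. In young replicate 4, 8 of the 30 members were at 0, and no old library can be lower than a 0. The median log2 fold change was 0.96 with all 8 libraries and 0.52 without young replicate 4, and it was 0.26 when only genes at 50 or more were kept and 0.60 with no filter. Il6 was the single member to pass with 8 libraries, none passed without young replicate 2, DESeq2 called 7 members higher, and 10 rose and 1 fell without young replicate 4. Of all genes, 1.49% were higher in DESeq2, and 2.7% rose and 1.58% fell without young replicate 4. Il6 read 5.23, 1.91, 0 and 0 in young, 6 reads in all, and 46.1, 58.6, 70.4 and 59.1 in old libraries, so that it passed the value filter through the old libraries and had to differ. Il4, the type 2 cytokine, read 18.3, 26.8, 12.6 and 0 against 68.1, 128, 100 and 119, and Csf2, which encodes GM-CSF, read 20.9, 7.65, 7.33 and 0 against 60.8, 110, 48.6 and 85.3. The old libraries were higher throughout, although at low levels. At higher levels, Tnfsf8, the ligand of CD30, read 348, 397, 304 and 445 in young and 2521, 1138, 645 and 2026 in old libraries, and Areg, an epidermal growth factor receptor ligand of tissue repair, read 399, 229, 293 and 135 against 513, 1061, 724 and 526. Without young replicate 4 the log2 fold changes were 2.00 ± 0.38 for Tnfsf8 and 1.17 ± 0.27 for Areg. Their adjusted p-values were 0.0174 and 0.0329, and over 20 alternatives they ran from 1.94e-05 to 0.361 and from 0.0117 to 0.394. Il10, an inhibitory cytokine, read 938, 723, 891 and 236 in young and 390, 590, 514 and 297 in old libraries, which overlap, and fell without young replicate 4. Il4, Tnfsf8 and Areg were picked out after their values were seen.

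Tnf read 864, 972, 1030 and 688 in young and 881, 982, 978 and 1003 in old libraries, and its log2 fold change was 0.13 ± 0.15 (adjusted p = 0.68). Ifng, the gene of interferon-gamma, read 200, 33.5, 177 and 0 against 351, 158, 188 and 263, which overlap. Il17a, at 0 in all young and at 0 to 16.8 in old libraries, and Il1b did not reach the value filter. Basophil and mast cell markers moved with the cytokines. The sum over 8 such markers was 9.16 to 99.4 in young and 125 to 751 in old libraries, without overlap. Of the 4 that reached the filter, Cpa3 and Gata2 rose without young replicate 4. Ms4a2 was at 0 in every young library, so that it passed the filter through the old libraries and had to differ. Their part in the cytokine values, and that of the macrophage, neutrophil and dendritic cell markers given above, was not tested.

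Of 15 chemokine genes compared, 5 had every old library higher and none every old library lower, where 6.8% and 4.36% of all genes did. In young replicate 4, 7 of the 15 were at 0, and no old library can be lower than a 0. The median log2 fold change was 1.40, or 0.90 without young replicate 4. Ccl5, a chemoattractant of T cells, read 1136, 1037, 2017 and 1095 in young and 2224, 2654, 4151 and 3144 in old libraries (log2 fold change 1.22 ± 0.26, adjusted p = 0.112). Ccl3, a chemokine with near-identical relatives, read 36.6, 36.3, 51.3 and 0 against 128, 118, 144 and 88. No chemokine passed with 8 libraries in limma, with 7 higher and 0 lower at an unadjusted p below 0.05 and 1 higher in DESeq2. For all genes, 6.68% were higher and 5.46% lower at that unadjusted p, and 1.49% were higher in DESeq2. Ccl3, Ccl5, Cxcl10 and Xcl1 rose without young replicate 4, where 2.7% of all genes did. Platelet markers, which include the chemokine Pf4, summed to 0.916 to 59.3 in young and 109 to 501 in old libraries over 5 listed genes, and their part was not tested.

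Receptors that steer T cells held genes of both directions. Of 33 chemokine and homing receptors, Gpr15 rose with 8 libraries and none fell, and without young replicate 4 there were 4 higher (Gpr15, Cxcr3, Cxcr4 and Cxcr6) and 5 lower, among them Ccr1, Ccr2, Ccr3 and Ccr10. The shares of all genes were 0.301% higher and 0.123% lower with 8 libraries, and 2.7% and 1.58% without young replicate 4. The median was 0.07 with all libraries and -0.23 without young replicate 4. Cxcr3, a receptor for interferon-induced chemokines, read 4629, 4012, 6061 and 5765 in young and 9047, 7241, 6998 and 8652 in old libraries, and Cxcr6 read 2725, 2283, 3851 and 2700 against 9016, 6062, 4710 and 7471. Both had every old value on top. Ccr10, a receptor for skin and mucosal chemokines, read 1339, 551, 743 and 1524 against 496, 256, 417 and 236 (log2 fold change -1.51 ± 0.38, adjusted p = 0.165). Ccr3, the eotaxin receptor, read 1581, 2807, 2026 and 879 against 351, 742, 971 and 564, which overlap. Cxcr3 and Cxcr6 were picked out after their values were seen.

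Cytokine receptors gave 1 higher (Ifngr1) and 1 lower (Il6ra) of 32 with 8 libraries, none of either without young replicate 2, and 4 higher and 2 lower without young replicate 4. Of all genes, 0.301% were higher and 0.123% lower with 8 libraries, and 2.7% and 1.58% without young replicate 4. Without young replicate 4, Il7r, Il1r2 and Il18r1 rose as well, and Il6st, which encodes the signaling chain of the IL-6 receptor, fell. Il7r, the IL-7 receptor of long-lived T cells, read 8245, 10126, 8536 and 7544 in young and 14713, 17293, 10897 and 15474 in old libraries. Bcl2, the survival factor, read 690, 978, 545 and 786 against 1919, 1742, 1202 and 2268 (log2 fold change 1.24 ± 0.24, adjusted p = 0.0833). Neither gene overlapped between the ages, and both rose without young replicate 4. Igfbp4, a resting T cell gene of the quiescence list, read 760, 932, 484 and 211 against 154, 162, 185 and 138. On that list of 20 genes the median was -0.31, 2 members rose (Il7r and Bcl2) and 5 fell (among them Lef1, Igfbp4, Dapl1 and Pecam1) without young replicate 4. Il7r and Igfbp4 were picked out after their values were seen.

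Of the cytotoxic genes compared, 14 had a log2 fold change above 0 and 6 below. Ctsw, cathepsin W of cytotoxic lymphocytes, read 1161, 1490, 1357 and 2165 in young and 5906, 3055, 4168 and 5321 in old libraries, and rose 2.98-fold (log2 fold change 1.57 ± 0.25, adjusted p = 0.0436), while Gzmb fell. Without young replicate 2, Ctsw did not pass and Gzmb did. Gzmk, the granzyme of effector memory T cells, read 41.8, 10.5, 0 and 0 in young and 416, 671, 1185 and 263 in old libraries, with an adjusted p of 0.0726. Esm1, which lies inside Gzmk on the opposite strand, was among the 44 higher genes, and reads of the pair cannot be told apart without the strand setting, which is not given in the sources used here. Gzma read 370, 84.1, 787 and 933 against 222, 171, 134 and 365, and Gzmc read 347, 144, 194 and 1051 against 92.2, 76.6, 199 and 76.1, both with overlap. Over the 20 members compared, 5 had every old library higher and 1 every old library lower, where 6.8% and 4.36% of all genes did. In young replicate 4, 8 of the 20 were at 0, and no old library can be lower than a 0. The median of 0.77 was 0.29 without young replicate 4. Gzmk was picked out after its values were seen.

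More genes that define the Treg and the kTreg state had lower than higher values. Foxp3 read 30375, 31601, 36395 and 24669 in young and 32111, 34841, 34365 and 37793 in old libraries, and its log2 fold change was 0.19 ± 0.12 (adjusted p = 0.558). Klrg1, the gene of the sorting marker, read 29643, 26704, 30737 and 41561 against 16559, 21310, 32088 and 20012 (log2 fold change -0.54 ± 0.21, adjusted p = 0.356). Il1rl1 read 5070, 4697, 5859 and 3991 against 3355, 5579, 4395 and 4222, and Gata3 read 7356, 6975, 7294 and 7434 against 6365, 9415, 9245 and 7535. In all 4 genes the ages overlapped. Of 26 Treg identity genes none rose and 2 fell (Ctla4 and Icos), with a median of -0.06, and without young replicate 4 Lrrc32 and Il10 also fell. Of all genes, 0.123% fell with 8 libraries and 1.58% without young replicate 4. Of 24 kTreg and tissue Treg genes none passed in limma with 8 libraries. At an unadjusted p below 0.05, 3 were higher and 7 lower, against 6.68% and 5.46% of all genes. DESeq2 called 2 higher and 3 lower, against 1.49% and 1.25% of all genes. Without young replicate 4, Areg and Bhlhe40 rose and Ccr3, Ccr10, Nid2 and Il10 fell, where 2.7% and 1.58% of all genes did. Among the other genes that the study discusses for kTreg cells, Il2ra, Il2rb, Cd44, Cd69, Cd200r1, Ahr, Maf, Tox, Tbx21, Klra8, Cxcl2 and Ccl1 had log2 fold changes from -2.24 (Klra8) to 0.78 (Cxcl2) and overlapping ages.

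Interferon-stimulated genes had values on both sides of 0. Of 74 members, 8 had every old library higher and 8 every old library lower, where 6.8% and 4.36% of all genes did, and the median was -0.02. Tgtp1 rose with 8 libraries, Ifi44 and Tgtp2 rose as well without young replicate 4, and Rsad2, Ifi27l2a, Ifi209 and Ifi214 fell without it. Of all genes, 2.7% rose and 1.58% fell without young replicate 4. Without young replicate 2 the list had 1 lower member, Ifi209. Rsad2, the antiviral protein viperin, read 500, 326, 408 and 1615 in young and 223, 207, 145 and 197 in old libraries, with young replicate 4 on the same side as the other young libraries. Energy metabolism genes showed no called member with or without young replicate 4 among 78 mitochondrial ribosomal proteins, 41 complex I subunits and 44 subunits of complexes II to V, with medians of -0.04, -0.17 and -0.18 (0.02, -0.06 and -0.07 without young replicate 4). At an unadjusted p below 0.05 these lists had 2 higher and 1 lower, 0 and 1, and 1 and 3 members, and neither edgeR nor DESeq2 called any. The share of signal on mitochondrially encoded genes was 0.437 to 0.569% in young and 0.377 to 0.606% in old libraries (two-sided exact permutation p = 0.4, adjusted p = 0.64 over 8 library values). Immediate early genes had a median of 0.46 over 33 members with none called in limma, DESeq2 or edgeR, 6 higher and 1 lower at an unadjusted p below 0.05, and Jun and Fosl2 rose without young replicate 4. At that unadjusted p, 6.68% of all genes were higher and 5.46% lower.

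**Figure D4:**
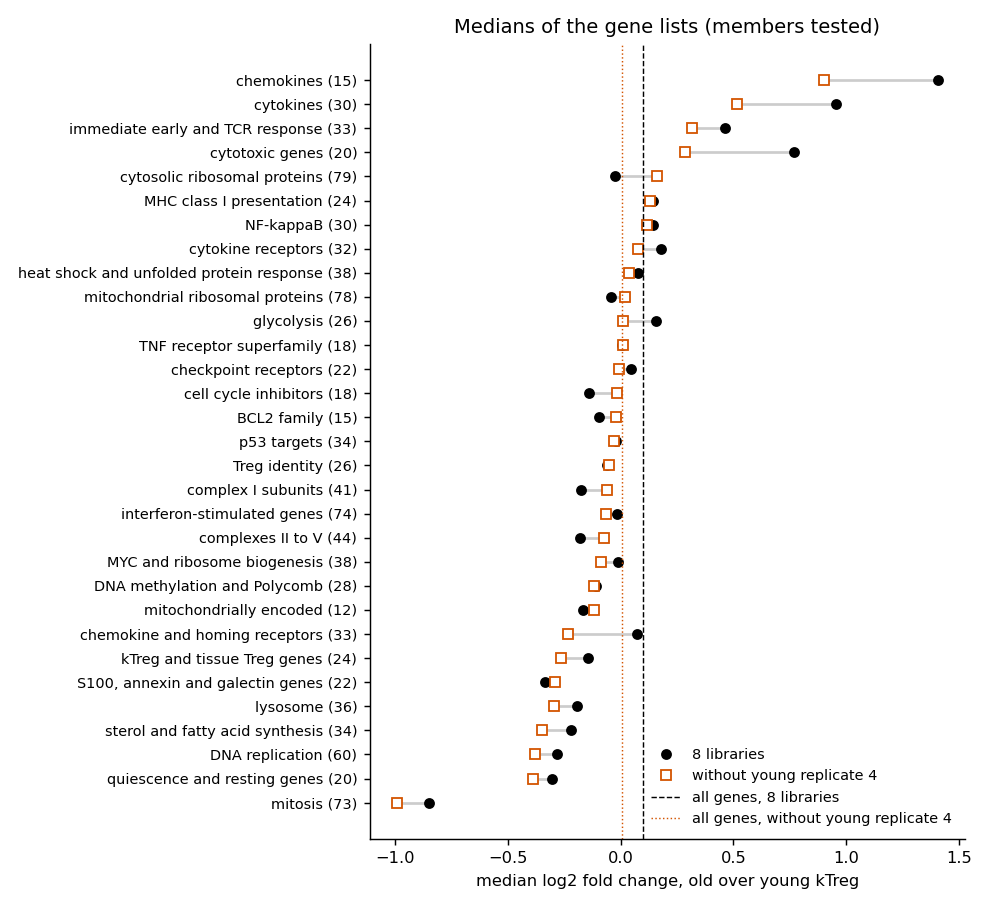
Each row is a gene list with the number of members compared, and the horizontal axis is the median log2 fold change of old over young kTreg cells, with all 8 libraries (filled circles) and without young replicate 4 (open squares). Mitosis has the lowest median on both (-0.85 and -0.99), chemokines and cytokines the highest (1.40 and 0.96 with 8 libraries), and dashed and dotted lines mark the medians of all genes.

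The same ages were compared in aTreg and rTreg cells, in 1 fit over all 24 libraries. There, 267 genes (1.83%) were higher and 134 (0.916%) lower in old aTreg cells, and 644 (4.4%) were higher and 230 (1.57%) lower in old rTreg cells. Of the 44 genes higher in old kTreg cells, 28 were also called higher in old aTreg and 22 in old rTreg cells, and none was called lower in either. Of the 18 lower genes, 8 were called lower and 1 higher in old aTreg cells, and 1 lower and 5 higher in old rTreg cells. Apol7e had log2 fold changes of 2.07 in aTreg and 0.79 in rTreg cells, and Casp1 of 1.71 and 1.59. Gzmb was not called in either.

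The age effect itself was then compared between subsets. It differed between kTreg and aTreg cells for 27 genes, 7 higher in kTreg (0.0479%) and 20 lower (0.137%). Leaving out young replicate 1 or 3 or any old kTreg library left 3 to 7 genes, with more higher than lower in each case (6 and 1 without young replicate 1), while leaving out young replicate 2 gave 19 higher and 30 lower. Of the 20, 17 rose in aTreg cells and 4 fell in kTreg cells. Sgk1 was the single gene of the 62 to differ, falling in kTreg cells while its log2 fold change in aTreg cells was 0.94 ± 0.26 (difference -2.0001 ± 0.36, adjusted p = 0.0318). Igf2r, the mannose 6-phosphate receptor, read 791 to 1109 in young and 1251 to 1613 in old kTreg cells, but 3343 to 4385 in young and 819.2 to 1738 in old aTreg cells (difference 2.00 ± 0.26, adjusted p = 0.0018). Eomes, a T-box factor of cytotoxic cells, read 20.9, 22.9, 25.1 and 0 in young and 61.8, 144, 242 and 110 in old kTreg cells, and lay at 217.8 to 305.7 in young and 17.56 to 81.85 in old aTreg libraries (adjusted p = 0.0953 there). The difference for Eomes was 5.98 ± 1.08 (adjusted p = 0.0318), with the 0 of young replicate 4 among its values. Gm2a, a lysosomal lipid activator, went down in kTreg cells from 14534 to 18511 to 10170 to 10950 and up in aTreg cells from 6044 to 6900 to 8344 to 13230 (difference -1.26 ± 0.17, adjusted p = 0.00215).

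Between kTreg and rTreg cells the age effect differed for 467 genes, 130 higher in kTreg (0.889%) and 337 lower (2.3%). Of the 337, 251 rose in old rTreg cells and 24 fell in kTreg cells. The mitosis list held 46 of the 337 and the DNA replication list 17, and neither list held any of the 130. In rTreg cells 38 of the 73 mitosis members rose with age and 1 fell, and the list median was 1.37. In aTreg cells 1 rose and 1 fell, with a median of 0.15, and 1 member had a lower age effect in kTreg than in aTreg cells. Kif23 gave opposite age effects in the 2 subsets, at 232.9 to 536.3 in young and 814.1 to 1172 in old rTreg cells (difference -3.06 ± 0.40, adjusted p = 0.000478). Il1rl1 rose in rTreg cells from 131.8 to 209.4 to 628.8 to 1249 and overlapped in kTreg cells (difference -2.50 ± 0.32, adjusted p = 0.000369). Bcl2 was at 5206 to 6710 in young and 3108 to 4328 in old rTreg cells, while its kTreg values were higher with age (difference 1.97 ± 0.28, adjusted p = 0.00065). Fam234a, a membrane protein, fell in kTreg cells and rose in rTreg cells (difference -2.32 ± 0.27, adjusted p = 0.000189).

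**Figure D5:**
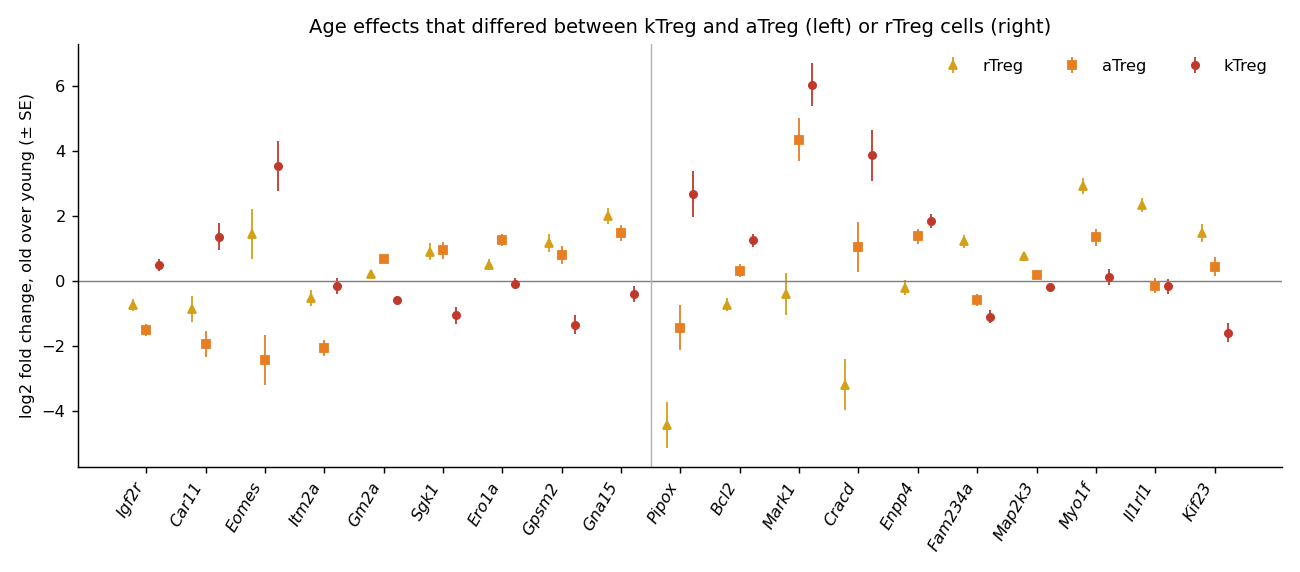
Points show the log2 fold change of old over young cells with its standard error in rTreg (triangles), aTreg (squares) and kTreg cells (circles), from 1 limma fit over 24 libraries, for genes whose age effect differed in kTreg against aTreg cells (left) or against rTreg cells (right), up to 5 per direction by p. Igf2r lies at 0.50 in kTreg and -1.51 in aTreg cells, and Kif23 at -1.59 in kTreg and 1.47 in rTreg cells.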

How the data were processed

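Sorted spleen Treg cells gave polyadenylated RNA for SMART-Seq v4 libraries, sequenced as read pairs of 150 bases, 4 libraries in each of 6 groups (24 in all). The authors aligned reads to GRCm39 with HISAT2 2.2.1 and SAMtools 1.13, counted them with HTSeq 1.99.2 and normalized them with DESeq2 1.44.0, and the annotation release, strand setting and design are not given in the sources used here. The deposited values are a signal, the reads of a gene divided by a size factor per library, and whole read counts were recovered from the deposited values of all genes within 0.001. No column was left without a sample. The age of the mice is from the study's text. Gene names came from the GRCm39 annotation for 17353 of 17464 identifiers, and 111 kept their identifier.

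Values were tested as log2(value + 1) with limma 3.58.1 (limma-trend, R 4.3.3) in the 8 kTreg libraries, over genes at 10 or more in at least 4, and a gene was called at a fold above 1.5 with p below 0.05 after Benjamini-Hochberg adjustment. Fold changes are on the log2(value + 1) scale, which understates those of low genes. Where only young replicate 4 was at 0, that 0 raises the log2 fold change and can turn its sign, as for Kif4 and Hmmr. Age effects of subsets were compared in 1 fit of 24 libraries at an adjusted p below 0.05. edgeR 4.0.16 and DESeq2 1.42.0 on the recovered counts, other pseudocounts, filters, scalings and library sets were alternatives, and scripts were tested on simulated data. Library values were compared by an exact permutation test over 70 assignments. Libraries of an age share the numbers 1 to 4 between subsets, and the sources used here do not say that a number is 1 mouse. Named genes were 15 per direction by p that do not overlap between ages (predicted genes, receptor segments and pseudogenes left out), called members of the gene lists, genes the study names for kTreg cells, and 5 per direction of each subset difference. Others are said to be picked after their values were seen. The genes compared, gene lists and tests were chosen with earlier results of these data known. Genes with near-identical copies or overlapping neighbours (among those named, Baiap3, Dennd2d, Podnl1, Fam234a, Gpr15, Ctsw, Cyp51, Sqle, Ccr10 and Nusap1) can share reads. Results for some genes are not reported here.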

Additional observations from a re-analysis of the deposited data

Results flagged for a closer look

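In young kTreg libraries, replicate 4 stood apart with 4913 genes listed at 0, and replicate 2 with 0.409% of signal on macrophage and monocyte markers. Among old libraries, replicate 3 had 17.2% of T cell receptor beta variable signal on its leading segment, against 10.1 to 10.8% in the others.

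Of 166 groups of 4 libraries examined for 75 named genes and the library values, 15 gave a library far from the other 3 for its gene or measure, and the 95% critical value of Dixon's ratio passes about 1 in 20 groups by chance. Among genes, in young libraries these were Apol10b at 241 and Ccl5 at 2017 in replicate 3, St6galnac1 at 3.92 in replicate 1, and Ccl3 and Eomes at 0 in replicate 4. In old libraries they were Cd200r1 at 5140 and Cd69 at 4768 in replicate 1, Dennd2d at 1890 and Il2ra at 4588 in replicate 3, and Myadm at 810, Car11 at 68.3 and Gm2a at 10170 in replicate 4.

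The age effect differed between kTreg and aTreg cells by limma's test of the difference, on the log2 scale, by 2.00 for Igf2r, 3.29 for Car11, 5.98 for Eomes and 1.91 for Itm2a, and by -1.26 for Gm2a, -2.0001 for Sgk1, -1.35 for Ero1a, -2.15 for Gpsm2 and -1.88 for Gna15. Between kTreg and rTreg cells it differed by 7.12 for Pipox, 1.97 for Bcl2, 6.44 for Mark1, 7.05 for Cracd and 2.05 for Enpp4, and by -2.32 for Fam234a, -0.97 for Map2k3, -2.80 for Myo1f, -2.50 for Il1rl1 and -3.06 for Kif23. Each of these had an adjusted p below 0.05. Mark1 was at 0 in all 4 young kTreg libraries and passed the value filter through the old ones. Its age effect in kTreg cells therefore had to be above 0. Positive values are a higher age effect in kTreg cells.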

How the results depend on the processing

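The 62 genes called (44 higher and 18 lower) became 39 (22 higher) at a pseudocount of 0.5, 96 (68 and 28) at 5, 43 (26 higher) with a filter at 50, 199 (159 and 40) in a fit of 24 libraries, 723 (456 and 267) with library weights, 31 (16 higher) in edgeR, 401 (218 and 183) in DESeq2, 727 (468 and 259) without young replicates 2 and 4, and 1024 (668 and 356) at an unadjusted p with the fold. Leaving out 1 library gave 0 to 626 genes, 0 to 395 higher and 0 to 231 lower. The cause of these shifts was not tested, but young replicate 4 had a library weight of 0.057 against 1.08 to 2.38 elsewhere. A replicate block on the number, which young and old libraries only share as a number (correlations of deviations from -0.0342 to 0.0519), gave 0 genes in limma, 0 in each direction, with 1522 at an unadjusted p below 0.05.

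The age effect differed between kTreg and aTreg cells for 133 genes in DESeq2 and 3 to 49 on leaving out 1 kTreg library (27 with all), and between kTreg and rTreg cells for 816 and 286 to 683 (467 with all). With a replicate block on the number within an age, shared between subsets at a consensus correlation of 0.0597, these were 39 and 566.

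List medians, on the log2 scale, moved as follows. With library weights the kTreg and tissue Treg list was -0.27, homing receptors -0.24, cytokines 0.54 and glycolysis 0.0122. Without young replicates 2 and 4 the same lists but glycolysis were -0.28, -0.15 and 0.50, with immediate early genes at 0.14 and heat shock genes at -0.0191. In edgeR and DESeq2 p53 targets were -0.10 in both, chemokines 0.79 in both, homing receptors -0.14 in both, and the TNF receptor superfamily -0.27 in both. Cytokines were 0.60 with no filter and 0.26 with a filter at 50, where the TNF receptor superfamily was -0.20. With median scaling, DNA methylation and Polycomb genes were -0.18 and MHC class I genes 0.07. Leaving out 1 library gave -0.16 to -0.0134 for cell cycle inhibitors, -0.23 to 0.13 for homing receptors, 0.90 to 2.00 for chemokines, 0.52 to 1.02 for cytokines, 0.29 to 0.94 for cytotoxic genes, 0.0121 to 0.24 for glycolysis, -0.39 to -0.12 for quiescence genes, -0.35 to -0.17 for sterol genes and -0.99 to -0.56 for mitosis. The old minus young difference in the share of ribosomal protein signal turned to 0.125 percentage points without young replicate 4 and 0.0141 without old replicate 2 (range -0.1004 to 0.125), and that in macrophage marker signal to 0.0145 without young replicate 2 (range -0.119 to 0.0145).

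Of the 75 named genes, none that was called with all 8 libraries or in an alternative had opposite signs in these fits. Changes of sign in a gene called in neither were not counted. The 34 called with all 8 libraries all lost the call without young replicate 1 or old replicate 1, 2 or 4, 8 did without young replicate 2, and none did without young replicate 4.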
